A study of Mus musculus with 4 samples.

Results

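Isg15, Ifit1, Ifit2, Ifit3, Rsad2, Oasl2, Usp18, Irf7 and Ifi27l2b are interferon-stimulated genes, and their levels are given here in every library of mouse small-intestinal crypt epithelium. The 9 genes, of 27998 in the count tables, were taken by symbol. The cells were live EpCAM+ CD45- crypt cells sorted from 8-week-old mice, and the labels name 4 mice without saying how they were divided among the 4 single-cell libraries. The 2 Slc7a5 fl/fl libraries served as controls and carry the floxed alleles without Cre. The 2 Slc7a5 IEC-KO libraries come from mice of the same floxed strain with Cre under the villin promoter, which acts throughout the intestinal epithelium, so that the floxed exon of Slc7a5, an amino acid transporter, is removed in all epithelial cell types and not in Paneth cells alone. Slc7a5 itself gave 140, 128, 350 and 615 UMIs (unique molecular identifiers, each counting 1 captured transcript) in fl/fl 1, fl/fl 2, IEC-KO 1 and IEC-KO 2. These counts were higher in the knockout and do not check the labels, because the 3′ tags lie outside the deleted exon.

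The 26498 cells were split by the share of their UMIs in symbols starting with Defa, the alpha-defensins that Paneth cells secrete. Cells with at least 30% were called Paneth cells (8325 cells) and cells under 20% were called other cells (15441 cells). The 2732 cells between these limits entered neither class. They were 120, 89, 1305 and 1218 cells in fl/fl 1, fl/fl 2, IEC-KO 1 and IEC-KO 2. The cut was close to more cells in the knockout: 73, 44, 590 and 561 cells of the 4 libraries had a Defa share between 28% and 32%. Depth differed between genotypes. The Paneth cells had median UMI counts of 46965 and 52851.5 in fl/fl against 13782 and 20159 in IEC-KO, and the other cells had 10598 and 11502 against 5750.5 and 8110.5. Levels are therefore given as UMIs of the gene per 1000000 UMIs of the class (CPM), and shares of cells were also computed after each cell was thinned to 3500 UMIs. Nothing in the labels says that 2 libraries of 1 genotype came from separate animals, so the p-values measure the spread between libraries only. No 2 libraries had more than 132 cell barcodes in common.

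Interferons of type I and type III bind receptors at the cell surface, and the kinases JAK1 and TYK2 then activate transcription factors, among them STAT2. These join IRF9 in a complex that binds a GAAA-containing element, the interferon-stimulated response element, in the promoters of many genes. In the intestinal epithelium interferon lambda, the type III form, is a main inducer of these genes. Among the 9 genes, Isg15 encodes a ubiquitin-like protein that is attached to other proteins, and Usp18 encodes the protease that removes it and also dampens receptor signalling. Ifit1, Ifit2 and Ifit3 encode related proteins that recognise foreign RNA. Rsad2 encodes viperin, an antiviral enzyme, and Oasl2 an oligoadenylate synthetase-like protein. Irf7 is the transcription factor that amplifies interferon production, and Ifi27l2b encodes a small membrane protein of the Ifi27 family. In the mouse genome (build mm10) Ifit2, Ifit3 and Ifit1 lie in this order on chromosome 19, at chr19:34550694-34576419, chr19:34583531-34588731 and chr19:34640871-34650009. Isg15 lies at chr4:156199424-156200818, Oasl2 at chr5:114896936-114912234, Usp18 at chr6:121245906-121270917 and Irf7 at chr7:141262706-141266481. Rsad2 and Ifi27l2b are both on chromosome 12, at chr12:26442746-26456452 and chr12:103450898-103457223. Ifit3 has a close copy, Ifit3b, and Ifi27l2b a close relative, Ifi27l2a, so their counts are less certain, since reads shared by such copies can be dropped or split.

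Promoters that hold a response element are shown because the members were detected together in single cells. RefSeq windows of 250 bases before to 50 bases after the start (build GRCm38.p6, the same assembly as mm10) existed for 7 of the 9 genes, with 2 windows for Ifit2. The motif searched was GAAA, any 2 bases, GAAA, on both strands, and capitals mark its matches in the last 160 bases before the start, written 5′ to 3′ in the direction of transcription.
Isg15 (chr4:156200819-156200978, minus strand): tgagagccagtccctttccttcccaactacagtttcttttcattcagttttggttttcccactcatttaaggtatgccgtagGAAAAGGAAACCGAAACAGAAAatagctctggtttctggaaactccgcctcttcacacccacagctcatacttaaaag
Ifit1 (chr19:34640729-34640888, plus strand): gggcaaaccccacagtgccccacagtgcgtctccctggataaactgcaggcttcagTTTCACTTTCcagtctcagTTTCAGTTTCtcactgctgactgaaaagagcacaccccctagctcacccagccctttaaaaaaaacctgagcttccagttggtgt
Ifit3 (chr19:34583369-34583528, plus strand): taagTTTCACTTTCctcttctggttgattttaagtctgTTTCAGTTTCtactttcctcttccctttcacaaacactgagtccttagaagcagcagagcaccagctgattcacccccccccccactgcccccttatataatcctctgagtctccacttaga
Rsad2 (chr12:26456453-26456612, minus strand): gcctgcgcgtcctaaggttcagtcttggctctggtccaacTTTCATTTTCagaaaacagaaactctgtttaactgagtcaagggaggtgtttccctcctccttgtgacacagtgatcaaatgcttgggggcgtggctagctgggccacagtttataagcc
Isg15 held 3 matches that overlap each other, beginning 78, 72 and 66 bases before the start. In Ifit1 and Ifit3 there were 2 matches each, and in Rsad2 1, all on the opposite strand. The windows of Ifit2, Oasl2 and Irf7 held none. A match was thus found in 4 of the 7 genes (57.1%) and in 16 of 38 other interferon-stimulated genes with a window (42.1%). Among all genes with a window it was 1079 of 27025 (3.99%). Counted by window, it was 4 of 8 for the members and 1131 of all 32851 (3.44%). A match is a description of the letters and does not show binding.

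Among the other cells Ifi27l2b was counted far more often than the rest, at 405 and 402 CPM in fl/fl 1 and 2 and 357 and 343 in IEC-KO 1 and 2. Irf7 stood at 16.0, 14.0, 13.2 and 12.7, and Isg15 at 11.6, 11, 13.3 and 12.1. These were followed by Oasl2 at 7.51, 7.15, 7.05 and 6.76 CPM and by Ifit1 at 2.80, 3.06, 2.59 and 2.37. This order of 5 genes held in each library except that Isg15 and Irf7 changed places in IEC-KO 1. Usp18 lay at 1.57, 1.91, 1.69 and 2.21. The levels of Irf7 and Isg15 overlapped over libraries. Rsad2 lay at 0.524, 0.817, 0.439 and 0.288 and Ifit3 at 0.466, 0.272, 0.208 and 0.306, so that these last genes overlapped. Ifit2 had 3, 1, 3 and 0 UMIs and is at the edge of detection. After thinning to 3500 UMIs per cell, Ifi27l2b was found in 62.9%, 62.5%, 57.6% and 58.6% of the other cells, Irf7 in 5.22%, 4.84%, 5.06% and 4.25%, and Isg15 in 3.48%, 2.72%, 3.59% and 3.46%. Without thinning Ifi27l2b was found in 88.9%, 90.4%, 71.7% and 82.5%, and Isg15 in 8.64%, 8.83%, 6.05% and 6.96%, values that follow the depth.

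**Figure D1:**
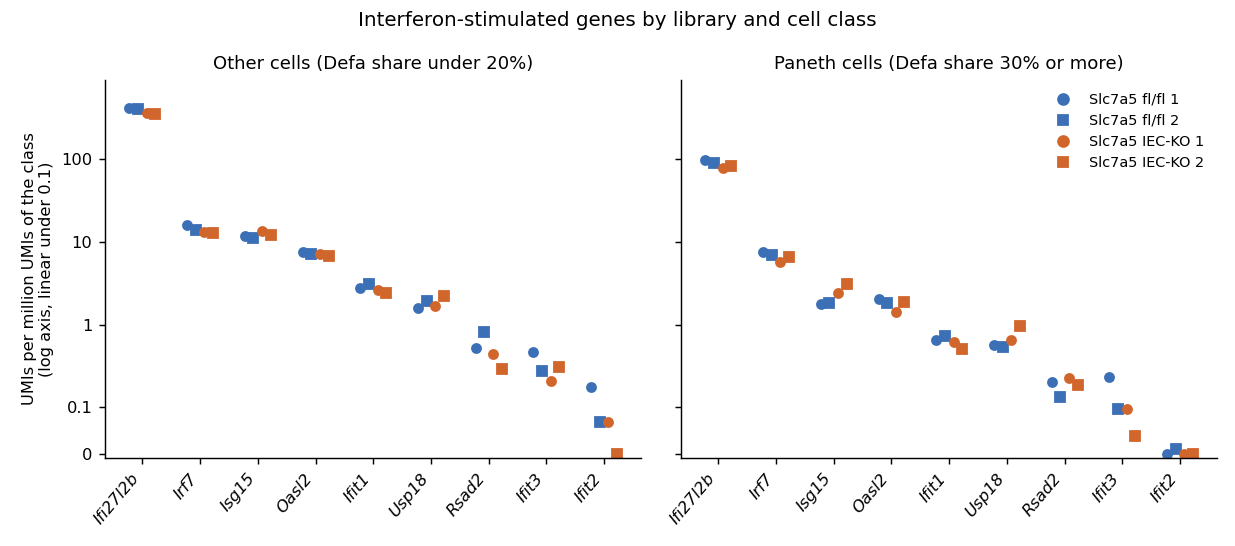
CPM over the class (log axis, linear under 0.1) for the 9 members in other cells and Paneth cells, 1 point per library, coloured by genotype. Ifi27l2b lies above all the others in both classes, and the points of every member but Ifit2 are lower in Paneth cells than in other cells in every library.

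The Paneth cells held lower member levels. Ifi27l2b stood at 97.3, 89.9, 76.8 and 80.8, Irf7 at 7.56, 6.96, 5.75 and 6.53, and Isg15 at 1.77, 1.82, 2.40 and 3.12. Oasl2 stood at 2.05, 1.81, 1.43 and 1.87, Ifit1 at 0.657, 0.736, 0.617 and 0.505, and Usp18 at 0.572, 0.542, 0.649 and 0.954. Rsad2 and Ifit3 stayed between 0.0374 and 0.233, and Ifit2 had 1 UMI in all 8325 Paneth cells. The level in Paneth cells was 21.5% to 24.0% of that in other cells for Ifi27l2b, 21.3% to 24.0% for Ifit1, 20.3% to 27.7% for Oasl2 and 15.3% to 25.9% for Isg15. It was higher for Usp18 (28.4% to 43.1%) and Irf7 (43.4% to 51.6%). The same ratio was 23.4% to 31.3% for the 12 enterocyte markers, which Paneth cells should lack, and 29.6% to 38.9% for the 11 goblet cell markers. Free RNA captured with each cell gives such ratios, and its part in the members' counts in Paneth cells was not tested. Only Irf7 was above the ratio of both of these marker lists in every library. It was below the ratio of the enteroendocrine markers (47.9% to 83.3%) and of the tuft markers (43.8% to 64.9%) in every library. The transit amplifying markers (11.6% to 23.5%) lay below Irf7 in every library, and the stem cell markers (27.7% to 53.6%) lay on both sides of it.

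Tested against the other cells of the same libraries, with the median gene as the reference, 4 of 8 members that passed the filter on low counts differed. The fit was edgeR's quasi-likelihood test on UMI sums per library and class with Benjamini-Hochberg adjustment, as in every comparison across genes here, and errors are SEs of the log2 difference over the 4 libraries. Isg15 was lower in Paneth cells, by a log2 difference of -0.86 ± 0.11 (adjusted p = 0.000278), as were Ifi27l2b (-0.58 ± 0.15, adjusted p = 0.0103) and Ifit1 (-0.52 ± 0.19, adjusted p = 0.0471). Irf7 was higher by 0.49 ± 0.15 (adjusted p = 0.0215). Of the 12433 genes tested, 27.1% were lower and 25.4% higher, so the members' shares are near the background. Among the 4 members that differed, the reference decides the sign of Irf7, while Isg15, Ifi27l2b and Ifit1 were lower on both scalings. Scaled by library size alone, the median gene was lower by 1.56 on the log2 scale in Paneth cells. On that scaling Isg15, Ifi27l2b, Ifit1, Irf7 (-1.06), Oasl2, Usp18 (-1.45), Rsad2 (-1.40) and Ifit3 (-1.51) were all lower. The Ifit1 call was lost without IEC-KO 1 (adjusted p = 0.129) or IEC-KO 2 (0.214), the Irf7 call without fl/fl 1 (0.0760) or fl/fl 2 (0.0919), and the Ifi27l2b call without IEC-KO 2 (0.0505), all in edgeR's quasi-likelihood test. With cells thinned to 3500 UMIs, Ifit1 (-0.61, adjusted p = 0.186) and Irf7 (0.33, adjusted p = 0.221) did not pass in edgeR. The Ifit1 call was also lost in DESeq2 (adjusted p = 0.0911), and in edgeR with at least 10 counts in every sum (0.0504) and with class limits of 40% and 10% Defa (0.168).

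In the Paneth cells, 4 members were lower in Slc7a5 IEC-KO than in fl/fl relative to the median gene. Ifi27l2b differed by -0.86 ± 0.07 on the log2 scale (edgeR quasi-likelihood, adjusted p = 1.4e-09), Irf7 by -0.85 ± 0.09 (1.0e-07), Oasl2 by -0.81 ± 0.16 (0.000351) and Ifit1 by -0.97 ± 0.26 (0.00493). These are 4 of 7 members tested, and 19.8% of all 12492 genes were lower and 20.2% higher in this comparison. Isg15 (0.03 ± 0.15), Usp18 (-0.04 ± 0.25) and Rsad2 (-0.35 ± 0.43) did not pass the test. No member was higher with the median gene as the reference, at an adjusted or unadjusted p, in edgeR or DESeq2. On CPM, the 2 genotypes did not overlap for Ifi27l2b, Irf7 and Ifit1, lower in IEC-KO, nor for Isg15 and Usp18, higher in IEC-KO. They overlapped for Oasl2, Rsad2, Ifit3 and Ifit2. CPM scales by library size alone, and non-overlap of 2 against 2 libraries has an exact permutation p of 0.333, so these are a description only. How many of all genes did not overlap was not computed. Scaled by library size alone, the median gene was higher by 0.62 in IEC-KO Paneth cells, and Ifi27l2b was lower by a log2 difference of -0.25, Oasl2 (-0.19), Irf7 (-0.23) and Ifit1 (-0.35) did not pass, and Isg15 (0.65) and Usp18 (0.58) were higher. The Ifit1 call was also lost without IEC-KO 2 (adjusted p = 0.104, edgeR quasi-likelihood) and in DESeq2 (-0.95, adjusted p = 0.0701). With cells thinned to 3500 UMIs Ifit1 could not be tested and Oasl2 did not pass (-0.80, adjusted p = 0.14, edgeR). Beside these differences, the summed enterocyte markers in Paneth cells stood at 1315 and 1240 CPM in fl/fl and 704 and 806 in IEC-KO. The summed goblet cell markers moved the other way, at 44151 and 39798 CPM against 51239 and 56349, as did the 8 stem cell markers, at 59.8 and 58.4 against 80.5 and 87.9. The part of these markers in the members' differences was not tested.

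**Figure D2:**
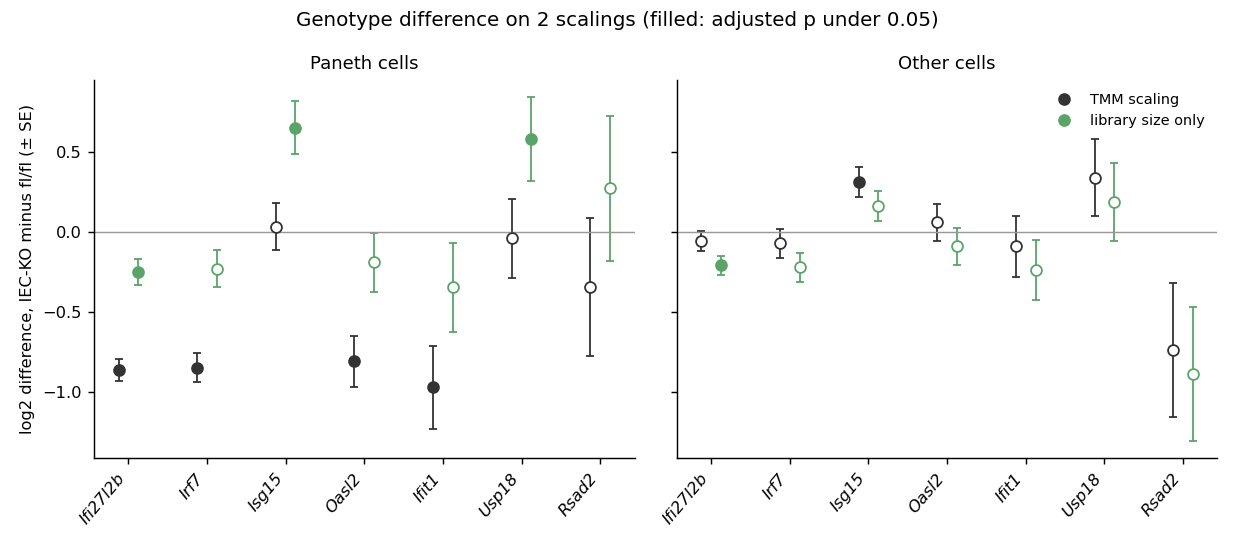
Log2 difference between Slc7a5 IEC-KO and Slc7a5 fl/fl (positive means higher in IEC-KO) of the 7 tested members in Paneth cells and other cells, with TMM scaling (black) and with library size only (green), bars for the SE and filled points for adjusted p under 0.05. With TMM scaling the 4 lower members in Paneth cells lie between -0.97 and -0.81, and every member lies higher on the other scaling in Paneth cells and lower in other cells.

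Among the other cells 1 member passed. Isg15 was higher in IEC-KO by 0.31 ± 0.10 on the log2 scale (edgeR quasi-likelihood, adjusted p = 0.0157), while 17% of the 12377 genes tested were higher and 16.7% lower. The libraries did not overlap, but the call was lost without fl/fl 1 (adjusted p = 0.0569), fl/fl 2 (0.122) or IEC-KO 1 (0.0754), in DESeq2 (0.15), and with cells thinned to 3500 UMIs (0.383), beside edgeR's quasi-likelihood value above. Ifi27l2b (-0.06 ± 0.06), Irf7 (-0.07 ± 0.09), Oasl2 (0.06 ± 0.12) and Ifit1 (-0.09 ± 0.19) differed by less than 1 SE, and Usp18 (0.34 ± 0.24) and Rsad2 (-0.74 ± 0.42) did not pass. On CPM, which scales by library size alone, the genotypes also did not overlap for Ifi27l2b, Irf7, Oasl2, Ifit1 and Rsad2, all lower in IEC-KO. Such non-overlap of 2 against 2 libraries has an exact permutation p of 0.333 and is a description only. Usp18, Ifit3 and Ifit2 overlapped, and how many of all genes did not overlap was not computed. Scaled by library size alone (median gene -0.15), Isg15 did not pass (0.16) and Ifi27l2b was lower by a log2 difference of -0.21. The mix of cells moved with genotype, with 4845 and 5293 CPM of enterocyte markers in fl/fl other cells against 2867 and 2574 in IEC-KO. The part of this mix in the class values was not tested, and the same comparison was made within types.

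The genotype difference in Paneth cells was itself set against that in other cells, in 1 model with the library as a block. It was lower in Paneth cells for Ifi27l2b (-0.80 ± 0.06, adjusted p = 4.0e-26), Irf7 (-0.76 ± 0.11, adjusted p = 4.8e-09), Oasl2 (-0.85 ± 0.18, adjusted p = 6.8e-05) and Ifit1 (-0.85 ± 0.30, adjusted p = 0.0291), all by edgeR's quasi-likelihood test. These are 4 of 8 members, where 11.3% of 13039 genes were lower and 11% higher. Usp18 (-0.39 ± 0.32), Isg15 (-0.25 ± 0.15), Ifit3 (-1.73 ± 0.84) and Rsad2 (0.44 ± 0.62) did not pass. The Ifit1 call was lost without any 1 of the 4 libraries (adjusted p = 0.0511 to 0.233, edgeR quasi-likelihood), and the other calls kept their side in all 4. Thinned to 3500 UMIs, Ifit1 (-0.90 ± 0.79) and Oasl2 (-0.86 ± 0.44) did not pass. Scaled by library size alone, where the median gene stood at 0.75, these 4 differences shrank to between -0.10 and -0.01 and only Isg15, at 0.51, passed.

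Cells with under 20% Defa UMIs were clustered within each genotype on genes that left out the members and the other interferon and MHC genes, and the clusters were named from marker genes. Goblet-like cells were most numerous (5594), followed by transit amplifying-like (2969), Paneth-like (2723) and enterocyte-like cells (1046). Paneth-like cells made up 136 of 1493 other cells in fl/fl 1 and 105 of 1178 in fl/fl 2. In IEC-KO 1 and IEC-KO 2 they were 1360 of 6680 and 1122 of 6090. The part of this in the comparisons of classes and genotypes was not tested. Tuft-like cells (205) and enteroendocrine-like cells (162) formed clusters of their own in IEC-KO only, and 2742 cells stayed unnamed. Levels by type are a description, since clusters were drawn from the same cells, and Ifi27l2b was among the 10 leading genes of 1 goblet-like cluster in IEC-KO.

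The members followed the type. Ifi27l2b was highest in enterocyte-like cells (753, 730, 707 and 651 CPM in fl/fl 1, fl/fl 2, IEC-KO 1 and IEC-KO 2), lower in goblet-like cells (552, 563, 607 and 557) and lower again in transit amplifying-like cells (219, 225, 207 and 228), with no overlap between these types. Ifit1 fell in the same order, with 10.2, 5.99, 18.1 and 11.9 in enterocyte-like, 2.81, 2.15, 2.1 and 2.39 in goblet-like and 1.05, 0.614, 0.662 and 1.58 in transit amplifying-like cells. All other cells together held 48, 45, 112 and 132 UMIs of Ifit1 in these libraries, so its values by type rest on few UMIs. For Isg15 the enterocyte-like cells held 33.9, 14.2, 39.3 and 26.1, the goblet-like cells 11.1, 13.3, 20.7 and 18.8, and the transit amplifying-like cells 8.92, 5.53, 5.83 and 9.39. The enterocyte-like value of fl/fl 2 rests on 19 UMIs and lies within the goblet-like range. Oasl2 stood at 19.0, 12, 15.8 and 12.2 in enterocyte-like cells and between 4.30 and 5.77 in transit amplifying-like cells. Irf7 did not share this order: it stood at 15.6 to 22 in enterocyte-like and at 16.8 to 19.9 in goblet-like cells, which overlap, at 9.93 to 13.3 in transit amplifying-like cells, and at 29.0 in the tuft-like cells of both IEC-KO libraries. Usp18 was counted at 8.5 and 16.7 in the enteroendocrine-like cells of IEC-KO 1 and 2, on 6 and 13 UMIs. Summed over the 8 members other than Ifi27l2b, Paneth-like cells had 16.0 to 20.5 CPM and transit amplifying-like cells 22.3 to 30.3. Goblet-like cells had 43.4 to 53.7, tuft-like cells 60.5 to 62.6 and enterocyte-like cells 50.2 to 102.

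**Figure D3:**
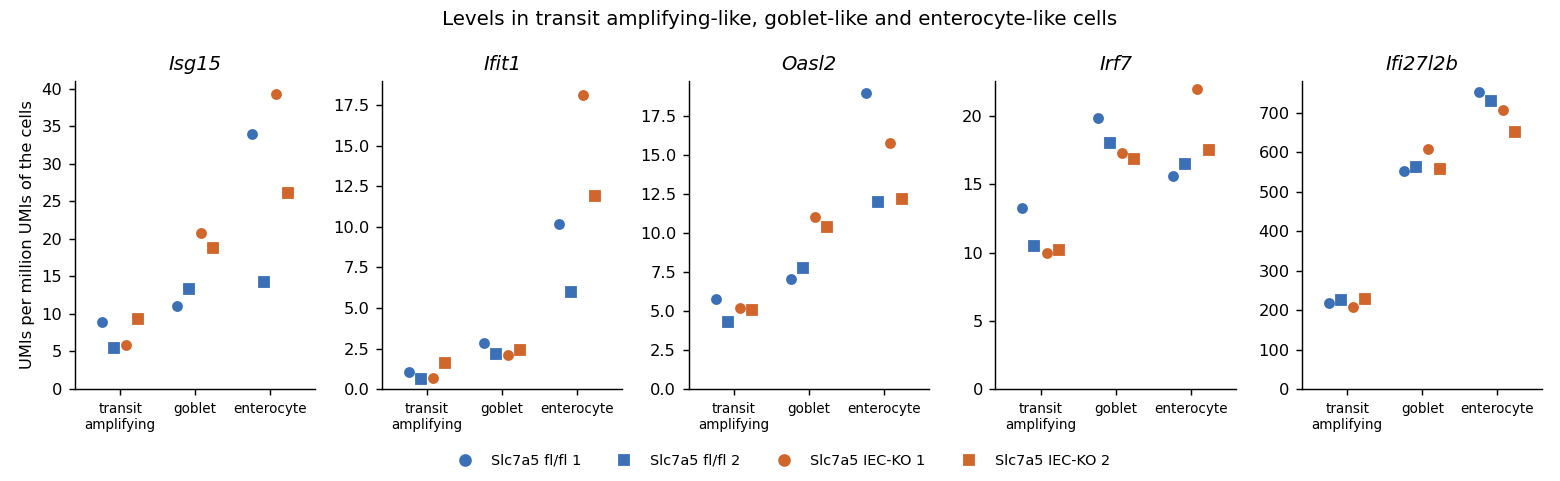
CPM over the cells (linear axes from 0) for Isg15, Ifit1, Oasl2, Irf7 and Ifi27l2b in transit amplifying-like, goblet-like and enterocyte-like cells, 1 point per library, coloured by genotype. Ifi27l2b and, on few UMIs, Ifit1 step up from type to type without overlap, while Irf7 overlaps between goblet-like and enterocyte-like cells.

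Within types the genotypes were compared again over libraries. In goblet-like cells Isg15 was higher in IEC-KO by 0.63 ± 0.14 on the log2 scale (edgeR quasi-likelihood, adjusted p = 0.00317), 1 of 6 members tested where 7.9% of 10525 genes were higher and 6.97% lower. Both IEC-KO libraries were above both fl/fl libraries. The call was lost without fl/fl 1 (adjusted p = 0.114, edgeR quasi-likelihood). Oasl2 differed by 0.47 ± 0.18 (adjusted p = 0.0832) and passed when scaled by library size alone (0.54, adjusted p = 0.0369), both by edgeR's quasi-likelihood test. The goblet-like class did not cover like cells in both genotypes. It took in 356 fl/fl cells led by C2cd4a, C2cd4b and Tac1, while 1146 IEC-KO cells led by Plet1 and Tac1, with C2cd4b, stayed unnamed. Mean Isg15 was 8.15 CPM in all unnamed IEC-KO cells against 19.8 in goblet-like ones. The part of this in the goblet-like differences was not tested. In transit amplifying-like cells edgeR called 0 of 5 members, also 0 at an unadjusted p under 0.05, where 3.78% of 10526 genes were higher and 2.48% lower. Isg15 there differed by 0.15 ± 0.26. In fl/fl, 170 of these transit amplifying-like cells formed a cluster that counted 7 of 8 stem cell markers. The IEC-KO clusters of this name counted at most 2 of them. The part of this in the comparison was not tested. In enterocyte-like cells edgeR called 0 of 5 members and 1 at an unadjusted p under 0.05, where 3.04% of 7983 genes were higher and 1.9% lower. That member was Ifit1, at 0.86 ± 0.35 (adjusted p = 0.184, edgeR quasi-likelihood). Without fl/fl 1 Isg15 passed in enterocyte-like cells, at 1.18 (adjusted p = 0.01, edgeR quasi-likelihood), against 0.41 ± 0.27 with all libraries, and without fl/fl 2 the difference was -0.07. With 1 fl/fl library left, that library is assumed to vary like the IEC-KO libraries. DESeq2 was not run within types, and whether the genotype difference itself differs between types was not tested.

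Of the rest of the pathway, the ligands looked up were nearly absent. These 9 interferon genes had 2 UMIs in all 26498 cells, 1 each for Ifnk and Ifnl2. The other 7, Ifna1, Ifna2, Ifna4, Ifnb1, Ifne, Ifng and Ifnl3, had none. Interferon genes outside this list were not looked up. Receptors were present. The interferon gamma receptor chains Ifngr1 and Ifngr2 had 8344 and 5261 UMIs, Il10rb, a chain of the lambda receptor, 5772, the type I chains Ifnar2 and Ifnar1 1121 and 991, and Ifnlr1, the chain particular to lambda, 257. In Paneth cells Ifnar2 was higher in IEC-KO (0.52 ± 0.18, adjusted p = 0.0275) and Ifngr2 (-0.35 ± 0.09, adjusted p = 0.00373) and Ifngr1 (-0.23 ± 0.08, adjusted p = 0.0300) were lower by edgeR's quasi-likelihood test. In other cells Il10rb was higher (0.20 ± 0.07, adjusted p = 0.0363) and Ifngr2 lower (-0.48 ± 0.08, adjusted p = 9.4e-05) by the same edgeR test. Among the signal transducers the kinase gene Tyk2 was lower in IEC-KO Paneth cells (-0.60 ± 0.17, adjusted p = 0.00780, edgeR). In other cells Stat2, Irf9, Jak1, Jak2 and Tyk2 did not pass the edgeR test, nor an unadjusted p under 0.05. Among 9 tested sensors and relays of foreign nucleic acid, Tmem173 (STING; -1.41 ± 0.22), Mavs (-0.47 ± 0.11) and Tbk1 (-0.41 ± 0.14) were lower in IEC-KO Paneth cells, and Tbk1 (-0.49 ± 0.12) in other cells. These receptor, transducer and sensor differences are again relative to the median gene, and 20.2% of all genes were higher and 19.8% lower in Paneth cells, and 17% and 16.7% in other cells. Scaled by library size alone, Ifngr1 (0.39) and Ifngr2 (0.27) turned higher in IEC-KO Paneth cells, Tyk2 (0.02), Mavs (0.15) and Tbk1 (0.21) did not pass, and Tmem173 stayed lower (-0.79). On that scaling Il10rb (0.05) did not pass in other cells.

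Among 49 tested other interferon-stimulated genes, 22 were lower and 3 higher in IEC-KO Paneth cells, with a median log2 difference of -0.34 where the median of all genes was -0.00023 and 19.8% of genes were lower and 20.2% higher. The falls were led by Mx1 (-1.31 ± 0.48), an antiviral GTPase, Trim30a (-1.16 ± 0.42), Cmpk2 (-1.01 ± 0.29), the neighbour of Rsad2, and Oas1a (-0.85 ± 0.18). Ly6e (0.49 ± 0.07), Tor3a (0.45 ± 0.10) and Isg20 (0.37 ± 0.11) were the 3 that rose. Scaled by library size alone, 22 were higher and 0 lower, so the direction of the list rests on the reference. In other cells 9 were higher and 6 lower (median -0.05), beside 17% and 16.7% of all genes. Apol9b (1.05 ± 0.25), Isg20 (0.88 ± 0.09), Ly6e (0.73 ± 0.06) and Tor3a (0.62 ± 0.08) led the rises, and Epsti1 (-0.66 ± 0.08), Ifit1bl1 (-0.58 ± 0.12), Parp9 (-0.50 ± 0.13) and Eif2ak2 (-0.45 ± 0.08), the RNA-activated kinase PKR, led the falls. Of the MHC class I genes, H2-T23 was higher in IEC-KO in both classes (0.99 ± 0.10 in Paneth and 0.50 ± 0.08 in other cells) and H2-Q1 (-1.20 ± 0.16 and -0.96 ± 0.13), H2-Q2 (-1.05 ± 0.07 and -0.60 ± 0.07) and H2-T3 (-1.30 ± 0.12 and -0.91 ± 0.08) were lower. The MHC class II genes, which interferon gamma induces, were called in neither class (0 of 6 by edgeR in each, with 1 lower in Paneth and 2 higher in other cells at an unadjusted p under 0.05). Within enterocyte-like cells all 6 were higher in IEC-KO, with a median of 1.35, led by H2-Aa (1.6 ± 0.17). The leading genes of the class differed between genotypes: Fabp6, an ileal bile acid carrier, was among the leading genes of the IEC-KO enterocyte-like cluster, while the fl/fl cells led by Fabp6 formed a cluster of 64 cells that stayed unnamed. When the 2 genotypes were clustered together 4 of the 6 passed, with a median of 0.57.

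Single cells with at least 4 of the 9 members detected numbered 199. Of the other cells 25 of 1493, 16 of 1178, 43 of 6680 and 51 of 6090 met this limit in fl/fl 1, fl/fl 2, IEC-KO 1 and IEC-KO 2, and of the Paneth cells 26 of 2020, 28 of 1950, 2 of 2019 and 4 of 2336. The remaining 4 lay between the classes. Just inside the limit, 17, 9, 27 and 32 other cells had exactly 4 members, and just outside it 58, 54, 121 and 170 had 3. Shares among other cells were 1.67% (95% Clopper-Pearson interval 1.09 to 2.46), 1.36% (0.778 to 2.20), 0.644% (0.466 to 0.866) and 0.837% (0.624 to 1.10), intervals that cover counting error only. The mean share was changed by -0.776 percentage points in IEC-KO (two-sided exact permutation p = 0.333, the smallest that 2 against 2 libraries allow). Thinned to 3500 UMIs per cell, 8, 3, 20 and 12 other cells met the limit, or 0.536%, 0.255%, 0.299% and 0.197%, and the libraries of the 2 genotypes overlapped (difference -0.147 points, exact permutation p = 0.667). Of the Paneth cells 1.29%, 1.44%, 0.0991% and 0.171% met the limit at full depth and 0 after thinning in every library, where a count of 0, read as at most 3 cells, allows shares up to 0.149%, 0.154%, 0.149% and 0.128%, and the exact 95% intervals reach 0.182%, 0.189%, 0.183% and 0.158%. The order of the Paneth shares thus followed the depth.

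**Figure D4:**
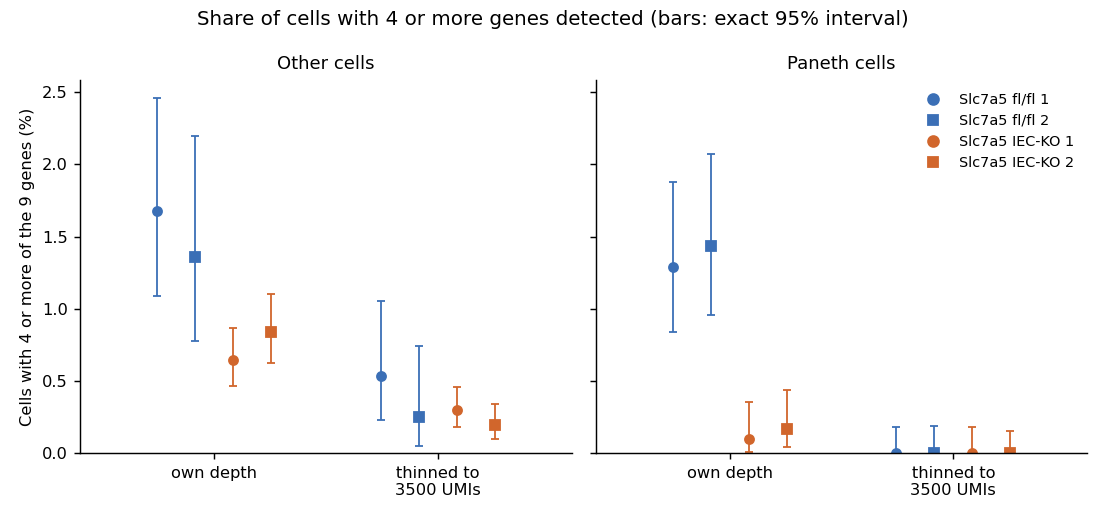
Percent of cells with 4 or more of the 9 members detected, by class and library, at full depth and after thinning each cell to 3500 UMIs, with exact 95% intervals. The fl/fl points lie above the IEC-KO points at full depth, and after thinning they overlap in other cells and are at 0 in Paneth cells.

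The 135 such cells among the other cells were spread over types. Goblet-like cells made up 63 (46.7%), enterocyte-like 28 (20.7%), transit amplifying-like 12, Paneth-like 6, tuft-like 4 and enteroendocrine-like 2, and 20 were unnamed. In fl/fl 1, fl/fl 2, IEC-KO 1 and IEC-KO 2 they were 7.63%, 1.87%, 2.05% and 1.89% of enterocyte-like, 1.11%, 1.49%, 0.892% and 1.33% of goblet-like and 0.830%, 1.04%, 0.0926% and 0.293% of transit amplifying-like cells. In the 2 IEC-KO libraries they were 0.870% and 3.33% of tuft-like and 2 of 92 and 0 of 70 enteroendocrine-like cells, where 0 allows a share of up to 4.29%. All 135 held Ifi27l2b, 124 held Isg15, 104 Oasl2, 102 Irf7, 77 Ifit1, 45 Usp18, 18 Rsad2 and 10 Ifit3, while Ifit2 was found in none. These cells, which are the rule's own choice, held 53.6% of the Rsad2 UMIs of all other cells, 49.3% of those of Ifit1, 34.2% of Ifit3, 26.3% of Usp18, 25.2% of Isg15, 17.3% of Oasl2, 9.73% of Irf7 and 2.90% of Ifi27l2b. Up to 8 members were found in 1 cell. The member UMIs per cell had medians of 19, 18.5, 13 and 15 in the 4 libraries, against 4, 3, 2 and 2 in the remaining other cells, and the cell with the most Isg15 held 21 UMIs of it. Most of these member UMIs were Ifi27l2b, with 1374 in the 135 cells, against 405 for Isg15, 171 for Irf7, 166 for Ifit1 and fewer for each other member. Median depth was 11050, 13567, 5900 and 8526 UMIs against 10596, 11489, 5749 and 8108. Mitochondrial UMIs had a median of 4.04% against 2.40% in fl/fl 1 and 1.86% to 2.30% against 1.76% to 2.39% in the other 3 libraries.

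Genes outside the 9 were then compared between these 135 cells and the remaining other cells of the same libraries, with the library as a block. Of 46 tested other interferon-stimulated genes, none of which chose the cells, 36 were higher and 0 lower (0 also at an unadjusted p under 0.05), with a median log2 difference of 1.48, where 3.04% of 10399 genes were higher and 2.46% lower in edgeR's quasi-likelihood test. The list was chosen with earlier results of these data known. A gene low in the remaining cells needed UMIs in the chosen cells to pass the filter on low counts. Among the rises named here, Trim30a (0.757 CPM in the remaining cells), Phf11d (0.873), Dhx58 (1.17), Oas3 (1.19) and Apol9b (1.51) were such genes. Their rises are a description only. The counts of higher and lower genes are therefore partly set by the filter, for every list here and in the alternatives below. Ddx60, a helicase of RNA sensing, stood at 44.6, 79.0, 87.8 and 88.2 CPM in fl/fl 1, fl/fl 2, IEC-KO 1 and IEC-KO 2 against 4.44, 3.24, 3.56 and 3.78 in the remaining cells (log2 difference 4.33 ± 0.28, edgeR adjusted p = 1.2e-51). Ifit1bl1, an Ifit family gene, stood at 137, 62.4, 91.0 and 72.8 against 5.20, 7.57, 4.74 and 4.64 (4.06 ± 0.25). In both genes all 4 libraries were higher with no overlap. Further large rises were those of Trim30a (4.80 ± 0.52), Apol9b (4.17 ± 0.44, with 0 UMIs in the cells of fl/fl 2), Oas3 (4.07 ± 0.48), Apol9a (3.97 ± 0.37), Rtp4 (3.64 ± 0.33), Phf11d (3.55 ± 0.63), Slfn2 (3.36 ± 0.46) and Dhx58 (3.32 ± 0.58), the last a sensor of the RIG-I family.

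The signalling genes moved in part. Irf9 (1.43 ± 0.38) and Jak2 (1.07 ± 0.33) were higher, while Stat2 (1.27 ± 0.49, edgeR adjusted p = 0.121), Jak1 (0.12 ± 0.24) and Tyk2 (-0.42 ± 0.80) did not pass. Of 9 sensors and relays 3 were higher, Dhx58, Ddx58 (RIG-I; 1.42 ± 0.43) and Ifih1 (MDA5; 1.31 ± 0.32). These 3 and Irf9 are also on the list of other interferon-stimulated genes and were already counted there. For the receptors edgeR called 0 of 5, with 1 at an unadjusted p under 0.05. Of 15 interferon gamma-linked genes 8 were higher, among them the immunity-related GTPases Igtp (2.71 ± 0.43), Ifi47 (2.29 ± 0.30) and Irgm2 (2.18 ± 0.68), and Tap1 (1.75 ± 0.30), the peptide transporter of antigen presentation. MHC class I gave 4 of 10, namely H2-Q1 (2.16 ± 0.40), H2-Q2 (1.01 ± 0.16), H2-T3 (0.98 ± 0.29) and B2m (0.44 ± 0.11), and not the classical H2-K1 (0.03) or H2-D1 (0.18). MHC class II gave 0 higher and 1 lower of 6, Cd74 (-0.37 ± 0.12), which did not pass when scaled by library size alone.

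**Figure D5:**
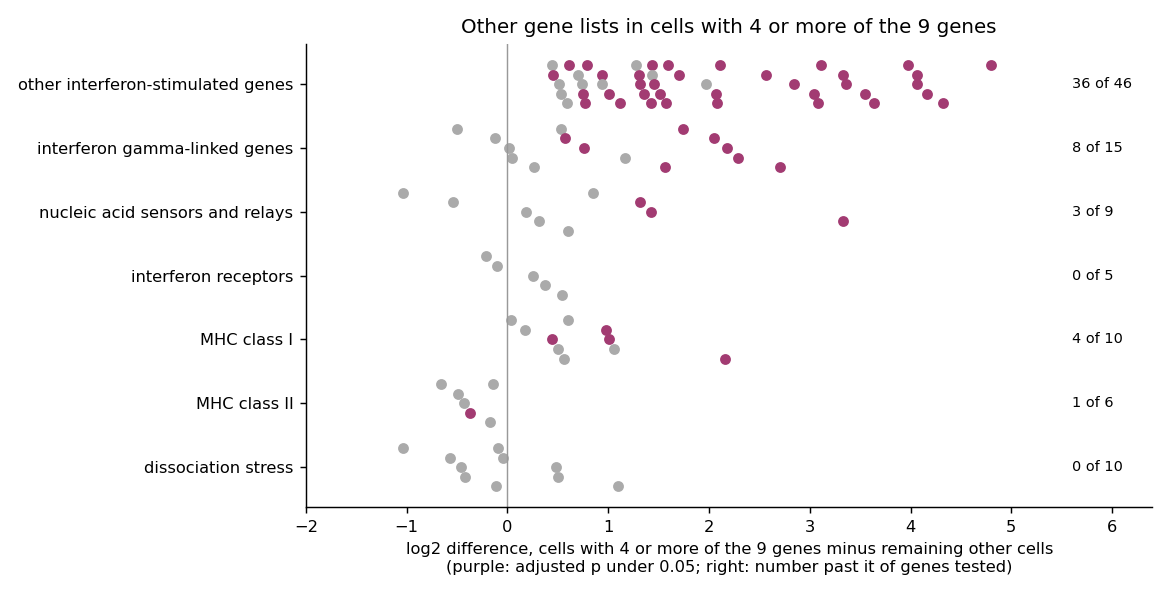
Log2 difference of each tested gene (1 point per gene, purple for adjusted p under 0.05) between the 135 other cells with 4 or more members and the remaining other cells, by gene list, with the number of genes past the threshold of those tested at the right. The other interferon-stimulated genes lie above 0 in 46 of 46 cases and 36 pass, while the dissociation stress genes scatter around 0 and 0 of 10 pass. Genes low in the remaining cells needed UMIs in the 135 cells to be tested, so these counts are partly set by the filter.

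Markers of immune cells were no more frequent in these 135 cells than in the remaining cells. A gene of the immune cell list was found in 10 of them (7.41%) and in 1180 of the 15306 remaining cells (7.71%). Ptprc, which encodes CD45, had 1 UMI, and Lyz2 had 7. Of the 10 dissociation stress genes edgeR called 0, with 2 higher at an unadjusted p under 0.05, and 88.1% of the cells held at least 1 of them against 77.0%. Enterocyte markers were higher, at 9638 to 25034 CPM over the 4 libraries against 2511 to 5171, beside the larger share of enterocyte-like cells. Within goblet-like cells alone 15 of 37 other interferon-stimulated genes were higher and 0 lower, and within enterocyte-like cells alone 5 of 26 and 0. With cells thinned to 3500 UMIs before they were chosen, 9 of 33 were higher and 0 lower. Leaving out 1 library in turn gave 25 to 38, with 25 without IEC-KO 2.

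The genes whose log-normalised values were most like the sum of the 9 members over single other cells were Zg16, Lypd8, Fabp2, Fcgbp and Clca1, with Pearson correlations of 0.50, 0.48, 0.44, 0.43 and 0.41 as means of the 4 within-library values. They are a description over the cells of 4 libraries, which share depth and cell type, and the sum is mostly Ifi27l2b. Zg16, Fcgbp and Clca1 are goblet cell products and Fabp2 an enterocyte fatty acid carrier. For the other 8 members without Ifi27l2b, a choice made after seeing that sum, the first 3 genes of 10040 were Ddx60 (0.23), Rtp4 (0.20) and Apol9a (0.19). Between members the highest pairs were Isg15 with Ifit1 (0.33) and Ifit1 with Rsad2 (0.31), while Ifi27l2b with Rsad2 stood at 0.04.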

How the data were processed

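Single-cell RNA-seq was made by the study from 4 libraries (2 Slc7a5 fl/fl, 2 Slc7a5 IEC-KO) with the 10x 3′ kit, version 2. The authors deposited per-library tables of UMI counts, filtered to called cells and not normalized. The labels' processing notes name Cell Ranger 2.1.1 and build mm10. Library totals were 113529509, 119339206, 87922473 and 127094508 UMIs (fl/fl 1, fl/fl 2, IEC-KO 1, IEC-KO 2), and every value rests on these.

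UMIs were summed per library and class and tested with edgeR 4.0.16 (quasi-likelihood, TMM, filterByExpr, Benjamini-Hochberg over all genes tested, threshold 0.05) in R 4.3.3, and with DESeq2 1.42.0 as an alternative. TMM makes differences relative to the bulk of genes, and when a few abundant genes change their share this can set a sign. SE is the absolute log2 difference divided by the root of F. Cells under 20% Defa UMIs were clustered per genotype (scanpy 1.11.5, Leiden, 2000 variable genes, 30 components), a choice made after seeing that joint goblet-like clusters held no fl/fl cells, and a cluster was named from at least 3 markers. Doublets were kept, and leaving out the 5% of cells with most UMIs was an alternative. The genotype, class and interaction fits were tested on simulated counts with 1 fixed spread between libraries. Changes of 2-fold were put only into genes above a set number of UMIs. They were recovered for 93% of these genes in the Paneth genotype comparison, 98% between classes and 66% in the interaction. Ifit1, Usp18 and Rsad2 were below that number in Paneth cells, so 93% does not describe them.

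The 9 genes, the lists and the tests were chosen with earlier results of these data known. Genes were named by a fixed rule: all members, ligands, receptors, transducers and sensors, the 4 largest changes in each direction of the other lists, the 10 largest listed and unlisted rises and 5 unlisted falls in cells with 4 or more members, and the 10 genes most like the members. The replicate numbers did not pair the libraries. Mx2, Trac and Trbc2 were listed but not used here. Some genes that the rule names are not reported here.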

Additional observations from a re-analysis of the deposited data

Results flagged for a closer look

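For 4 of 8 tested members the genotype difference in Paneth cells was not the same as in other cells, by the test of that difference itself (edgeR quasi-likelihood with Benjamini-Hochberg adjustment, 2 libraries per genotype, library as a block). Of all 13039 genes, 11.3% were lower and 11% higher in this test. The log2 difference between the 2 genotype differences was -0.80 for Ifi27l2b (adjusted p = 4.0e-26), -0.76 for Irf7 (adjusted p = 4.8e-09), -0.85 for Oasl2 (adjusted p = 6.8e-05) and -0.85 for Ifit1 (adjusted p = 0.0291). In other cells these genes differed by -0.06, -0.07, 0.06 and -0.09 between genotypes and in Paneth cells by -0.86, -0.85, -0.81 and -0.97. Scaled by library size alone, the 4 values were -0.04, -0.01, -0.10 and -0.09. The Ifit1 call was lost without any 1 of the 4 libraries. Median UMIs of Paneth cells fell from 46965 and 52851.5 in fl/fl to 13782 and 20159 in IEC-KO, and the part of depth was not tested beyond thinning, after which Ifi27l2b and Irf7 passed and Oasl2 (-0.86 ± 0.44, adjusted p = 0.276) and Ifit1 (-0.90 ± 0.79, adjusted p = 0.604) did not in edgeR, at differences of about the same size and larger SEs.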

How the results depend on the processing

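With library size only, 9249 genes passed for genotype in Paneth cells (main 4993), 11802 between classes (6522) and 9617 in the interaction (2908), with 8 members between classes (4), 1 in the interaction (4) and 2 in goblet-like cells (1). Under it Usp18 turned to 0.58 for genotype in Paneth cells, Ifit3 (-1.51), Rsad2 (-1.40), Usp18 (-1.45) and Irf7 (-1.06) turned lower between classes, and Isg15 turned to 0.51 in the interaction. DESeq2 gave 3123 genes for genotype in Paneth cells, 2492 in other cells (4163) and 0 members there (1 at an unadjusted p under 0.05). With cells thinned to 3500 UMIs fewer genes could be tested, and 1934, 2337, 3420 and 804 genes and 2, 0, 2 and 2 members passed for Paneth genotype, other genotype, classes and interaction. Class limits of 40% and 10% gave 2662 genes for Paneth genotype. For cells with 4 or more members, 572 genes and 36 other interferon-stimulated genes passed. A limit of 3 or more members gave 1278 genes, 5 or more 219, and thinning 212 genes and 9 of the list. Goblet-like cells alone gave 37 and 15, and enterocyte-like cells alone 41 and 5, with fewer cells. Clusters over both genotypes gave 167 genes in enterocyte-like cells (395).

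Leaving out 1 library gave 2 to 4 members and 5153 to 5962 genes between classes, 3 to 5 and 3950 to 4559 for Paneth genotype, 0 to 1 and 2839 to 4258 for other cells, 3 to 4 and 1769 to 2306 for the interaction, 0 to 1 and 814 to 1738 in goblet-like, 0 and 336 to 747 in transit amplifying-like and 0 to 1 and 252 to 421 in enterocyte-like cells. For cells with 4 or more members it gave 25 to 38 of the list and 367 to 513 genes. The difference in their share ran from -0.934 to -0.618 points in other cells and from -1.30 to -1.15 in Paneth cells.

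Same-numbered libraries of the 2 genotypes were hardly correlated in their deviations (0.034 and 0.051). The replicate block gave 4, 1, 1, 0 and 0 members and 5113, 4723, 1898, 983 and 578 genes in Paneth, other, goblet-like, transit amplifying-like and enterocyte-like cells, and changed no call of a member. Of the single-gene values 471 kept their side of the threshold, 34 lost and 8 gained significance, and 6 changed sign with a call in either fit. Values called in neither fit were counted as kept, also where their sign changed. A Defa limit of 50% was not run, since 18 cells, all of fl/fl 2, reach it. Joint clustering gave no goblet-like comparison. The causes of these changes were not tested. Depth limits Ifit2, Ifit3 and Rsad2, which stayed under 1 CPM in every library and class.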

Other observations

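In the 135 other cells with 4 or more members, genes outside every list also differed from the remaining other cells (edgeR quasi-likelihood, Benjamini-Hochberg adjustment, library as a block). Of the 135 cells 28 (20.7%) were enterocyte-like, against 1046 of all 15441 other cells. The part of cell type in the differences given here was not tested. Rnf213, a large E3 ligase, was higher by 2.45 ± 0.28 on the log2 scale (63 UMIs, higher in 4 of 4 libraries). Pdzk1, a brush border scaffold, was higher by 2.90 ± 0.47 (25 UMIs, 14 of them in fl/fl 1) and Cyp3a11, a drug-metabolising enzyme, by 2.94 ± 0.49 (23 UMIs). The remaining large rises rest on 5 to 13 UMIs in these cells, namely Cyp2d22 (3.33), Bst1 (3.30), Gdpd2 (3.16), Ltb4r2 (3.02), Slc34a2 (2.63) and Acaa1b (2.51). In the remaining cells they stood at 0.325 (Cyp2d22), 0.773 (Bst1), 0.742 (Gdpd2), 0.672 (Ltb4r2), 1.04 (Slc34a2) and 1.13 CPM (Acaa1b). Genes this low needed UMIs in the chosen cells to pass the filter on low counts, so their rises are a description only. The 5 largest falls were genes with 0 UMIs there. From the remaining cells 11.4 UMIs were expected for Trmu, 7.95 for Mis12, 6.90 for Arl14ep, 5.95 for Kiz and 5.91 for Lysmd2. A floor of 3 UMIs over the group would put the falls at 3.79-fold, 2.65-fold, 2.30-fold, 1.98-fold and 1.97-fold or more. These genes were picked as the largest falls of 10399 genes, so the floor gives no firm bound for them.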
